A study of Mus musculus with 12 samples.

Results

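The genes that make, repair and resolve the programmed DNA breaks of meiosis were followed in RNA and ribosome footprints of juvenile mouse testes with and without *Mael*. The list held 10 genes, which were looked up by symbol among the 20620 gene rows of the counts table. A row was found for 9 of them, *Prdm9*, *Spo11*, *Mei1*, *Dmc1*, *Meiob*, *Msh4*, *Msh5*, *Mlh3* and *Ccnb1ip1*, and all 9 passed the filter on low counts in both assays. *Rnf212* had no row under this or an older symbol, so it has no value here.

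Whole testes of C57BL/6 mice were taken at postnatal day 16 from *Mael*+/- heterozygotes, which served as controls, and from *Mael*-/- animals. *Mael* encodes Maelstrom, a protein of the piRNA pathway, through which male germ cells keep transposons such as LINE-1 silent. The testes were collected in cycloheximide, which stops ribosomes on the mRNA, and each extract gave an rRNA-depleted total RNA library and a library of the fragments that ribosomes protect from micrococcal nuclease. There were 3 extracts of each genotype, hence 12 libraries in 4 groups of 3. The labels do not say how many animals gave an extract, so the p-values measure the spread between extracts. The controls thus also carry the mutant *Mael* allele, in one copy.

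In meiotic prophase, germ cells cut their own chromosomes at chosen sites and repair the breaks on the homologous chromosome, and a few of the repair events mature into crossovers that hold the homologs together until they separate. PRDM9, a histone methyltransferase with zinc fingers, marks the sites. SPO11 is the topoisomerase-like protein that cuts the DNA, and MEI1 is needed for the cut to be made. DMC1, the recombinase made in meiosis alone, coats the cut ends and searches for the homolog, and MEIOB binds single-stranded DNA beside it. MSH4 and MSH5 form a clamp on the joined DNA, MLH3 belongs to the nuclease that resolves it as a crossover, and the RING finger proteins RNF212 and CCNB1IP1, the latter also called HEI10, select the events that become crossovers. In mouse testes the first cells to reach these steps do so in the weeks after birth, so a juvenile testis holds many cells in the stages that use these genes.

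Of the 9 genes with a row 3 lie on chromosome 17 and 2 on chromosome 15. In GRCm38 the intervals were chr17:15543072-15564374 for *Prdm9*, chr17:24804301-24839788 for *Meiob*, chr17:35028605-35046997 for *Msh5*, chr2:172977379-172993576 for *Spo11*, chr15:82070074-82126817 for *Mei1* and chr15:79561497-79605159 for *Dmc1*. Those of *Msh4*, *Mlh3* and *Ccnb1ip1* were chr3:153857141-153906138, chr12:85234466-85270647 and chr14:50789249-50795728, and *Rnf212* lies at chr5:108728105-108775067. RNA reads were counted over the exons of each gene and footprints over its coding sequence. Exons of *Meiob* overlap those of *Hagh* on the same strand and exons of *Msh5* overlap those of *Gm52318* on the other strand, and reads of the overlaps may have been split or dropped.

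The bases just before the start of transcription were searched because STRA8 and MEIOSIN, the factors that switch germ cells to the meiotic programme, bind promoters with a known motif. RefSeq promoters were given for 8 of the 10 genes (GRCm38.p6), not for *Spo11* and *Meiob*. In the 250 bases before the start, on both strands, the STRA8 and MEIOSIN motif CNCCTCAG was in 2 of the 8, *Prdm9* and *Msh5*, against 7.39% of 27025 genes. The E2F motif GCGGGAA, bound by regulators of S phase that also sit at germline promoters, was in 3 of the 8, *Prdm9*, *Msh5* and *Rnf212*, against 4.38% of genes. The E-box CACGTG and the cAMP response element TGACGTCA were in 0 of the 8, against 6.86% and 1.77% of genes. The promoters that held a match are shown 5′ to 3′ along the gene, with the matches in capitals. They cover chr17:15564358-15564431, chr17:35046651-35046729 and chr5:108775078-108775144, all on the minus strand.
Prdm9: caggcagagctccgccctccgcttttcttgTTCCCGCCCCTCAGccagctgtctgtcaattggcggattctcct
Msh5: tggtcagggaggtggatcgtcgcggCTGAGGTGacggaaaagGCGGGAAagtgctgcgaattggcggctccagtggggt
Rnf212: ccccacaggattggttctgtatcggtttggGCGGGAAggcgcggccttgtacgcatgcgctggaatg
In *Prdm9* the E2F match, on the other strand, and the STRA8 and MEIOSIN match, on the gene's strand, share 1 base and lie between 47 and 34 bases before the start. In *Msh5* the STRA8 and MEIOSIN match is on the other strand, 82 to 75 bases before the start, and the E2F match on the gene's strand, 65 to 59 bases before it. Other transcripts of these genes start further upstream, and 17 bases of the *Prdm9* window lie in annotated exons. The *Msh5* window was cut at its 5′ end so that no more than 30 of its bases do. The bases searched for *Msh5* lie inside the annotated interval of the gene. A match is a run of letters, and binding was not measured.

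The reads counted on genes came to between 13697267 and 27462358 per RNA library and between 7609932 and 13233565 per footprint library. *Mael* had 5045, 4314 and 3800 RNA counts in the 3 heterozygous libraries and 1, 2 and 0 in the *Mael*-/- libraries, so the gene targeted matched the labelled genotypes. Heterozygous extract 1 stood apart from the rest. Over 11 of the 12 markers listed for early meiotic prophase its median RNA level, on the log2 scale and relative to the mean of the 6 RNA libraries, was 0.44, while the other 5 libraries lay between -0.20 and 0.10. Over 11 of 15 pachytene markers it was 0.70, and the other 5 lay between -0.34 and -0.10. Neither list holds any of the 9 genes. The summed level of the early prophase list ran from 1781 to 3552 CPM, that is, counts scaled to a common library size, in heterozygous RNA and from 1658 to 2186 in *Mael*-/- RNA, and that of the pachytene list from 620 to 1360 and from 563 to 644. None of the markers with a row in these 2 lists was at 0 in all of the RNA libraries. Spermatogonial and Sertoli cell markers were not high in extract 1, at medians of -0.14 and -0.07. Macrophage markers, all 6 tested, were low in heterozygous extracts 1 and 2, at RNA medians of -0.38 and -0.36, against 0.23 in heterozygous extract 3 and 0.04 to 0.27 in *Mael*-/- RNA, and their summed level ran from 96.7 to 152 CPM in heterozygous and from 137 to 154 CPM in *Mael*-/- RNA. The RNA medians of 7 of 8 Leydig cell markers ran from -0.16 to 0.37 in the heterozygotes and from -0.32 to 0.56 in *Mael*-/- testes. Round spermatid markers, 9 in number, summed to only 6.0 to 11.1 CPM in RNA. In a whole testis fewer cells of a type and less RNA per cell cannot be told apart. The part of this extract's cell content in the results was not tested, and the RNA and footprint changes of the 9 genes are given with and without it. Extract 1 was singled out from these data, so p-values of fits without it are descriptive.

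*Dmc1* was the most abundant of the 9 genes per kilobase in both assays, and *Meiob* came next. Over all 6 RNA libraries, exon-length-scaled levels were 37.0 ± 8.1 CPM per kb for *Dmc1* (SD, n = 6) and 21.3 ± 8.8 for *Meiob*. Then came *Mei1* at 13.0 ± 1.9, *Spo11* at 12.4 ± 5.3, *Prdm9* at 12.3 ± 2.0 and *Msh5* at 11.1 ± 2.3. The lowest were *Ccnb1ip1* at 8.08 ± 1.75, *Mlh3* at 7.40 ± 1.28 and *Msh4* at 5.06 ± 2.15. Only the steps from *Dmc1* to *Meiob*, from *Msh5* to *Ccnb1ip1* and from *Mlh3* to *Msh4* were larger than the SD of both neighbours. *Dmc1* stood at percentile 80.9 of 13395 genes and *Msh4* at percentile 30.2.

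The order changed in footprints scaled by coding length. *Dmc1* reached 99.6 ± 29.5 CPM per kb of coding sequence and *Meiob* 42.8 ± 21.1. *Ccnb1ip1*, 7th in RNA, was 3rd at 17.7 ± 5.9, followed by *Mei1* at 16.7 ± 1.8, *Msh5* at 16.4 ± 4.2, *Prdm9* at 14.003 ± 3.10 and *Spo11* at 13.9 ± 6.2. *Msh4* at 8.47 ± 4.1 and *Mlh3* at 8.04 ± 1.2 were lowest. Steps larger than the SD of both neighbours were those below *Dmc1* and below *Meiob*, and the 7 genes from *Ccnb1ip1* down differed from the next by less.

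**Figure D1:**
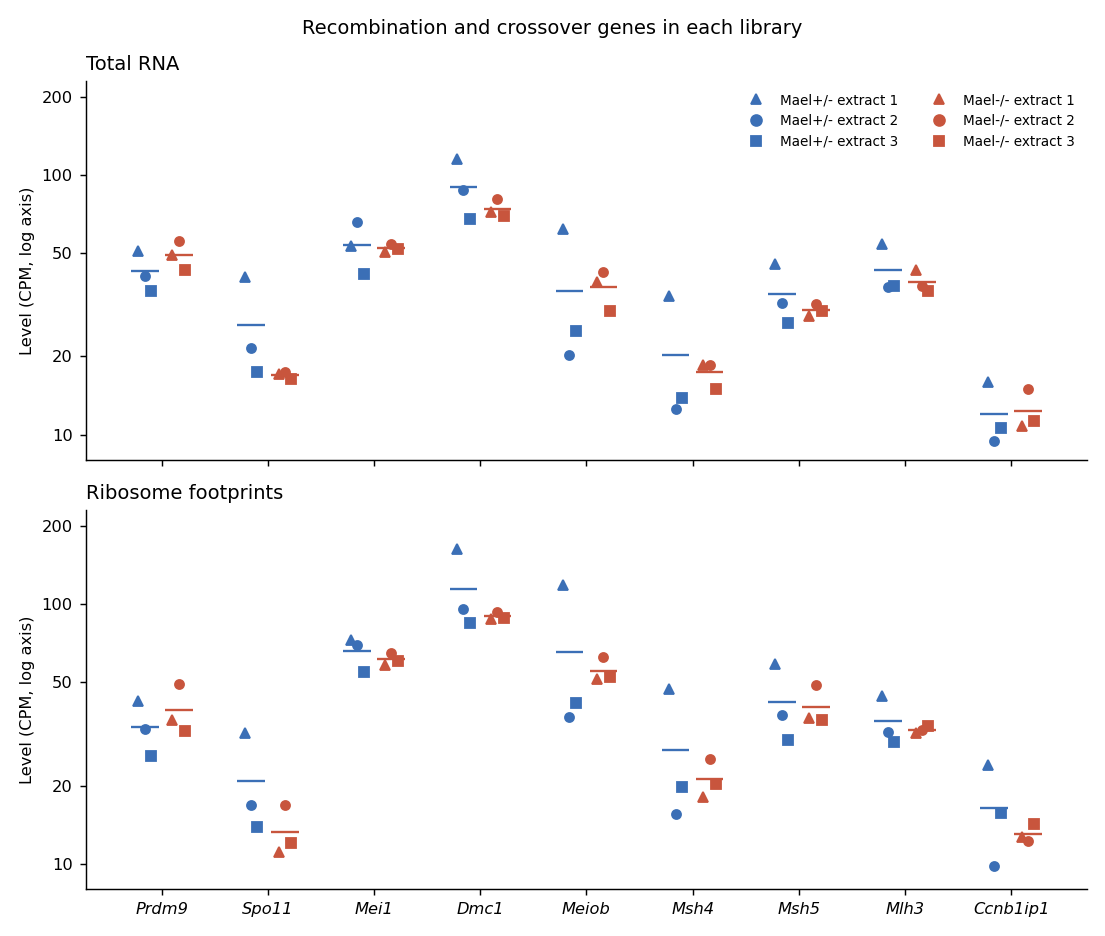
Level of each of the 9 genes in every library, in CPM on a log axis, for total RNA (top) and ribosome footprints (bottom); blue is *Mael*+/-, red is *Mael*-/-, the symbol gives the extract and the bar the mean of 3. Heterozygous extract 1 (blue triangles) was the highest heterozygous library in every gene but *Mei1* RNA, and the genotypes overlapped in all 9 genes of both assays.

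The comparison of genotypes asked whether recombination genes keep their RNA level in testes without *Mael*. None of the 9 genes was called in RNA by edgeR's quasi-likelihood test at an adjusted p under 0.05, where 0.116% of the 14685 genes tested were called, and 1 of the 9, *Spo11*, had an unadjusted p under 0.05, as did 793 genes in all. DESeq2 and limma voom also called 0 of the 9. In RNA 3 of the 9 were higher and 6 lower in *Mael*-/- testes, with a median log2 change of -0.14 against -0.0013 over all genes, while limma voom with quality weights gave 6 higher and 3 lower. The RNA levels of the 3 *Mael*-/- libraries overlapped those of the heterozygotes in 9 of 9 genes, while 10.2% of 13448 genes did not overlap. In 7 of the 9 heterozygous extract 1 was the highest of all 6 RNA libraries, which held for 29.2% of the 12181 genes that averaged 50 counts or more.

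Among the genes that place and make breaks, *Spo11* had the largest difference. Its RNA was at 40.4, 21.6 and 17.4 CPM in heterozygous extracts 1 to 3 and at 17.2, 17.5 and 16.4 CPM in *Mael*-/- extracts 1 to 3. Heterozygous extract 1 was high, extract 3 lay within the *Mael*-/- values and the *Mael*-/- libraries lay close together. The log2 change was -0.62 ± 0.26 (SE, 95% interval -1.21 to -0.04, adjusted p = 0.910, edgeR). Without heterozygous extract 1 it was -0.19 ± 0.13.

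*Prdm9* was the only gene of the 9 that was higher in *Mael*-/- RNA by over 0.1 on the log2 scale, at 0.22 ± 0.15 (SE, 95% interval -0.10 to 0.55, adjusted p = 0.982, edgeR). Its RNA was at 51.1, 40.8 and 35.7 CPM in the heterozygotes and at 49.1, 55.9 and 43.2 CPM in *Mael*-/- testes. All 3 *Mael*-/- values were above heterozygous extracts 2 and 3, and the change without extract 1 was 0.37 ± 0.12 with an adjusted p of 0.406. *Mei1* was at 53.4, 66.0 and 41.4 CPM in the heterozygotes and at 50.6, 54.4 and 52.0 CPM in *Mael*-/- testes. The *Mael*-/- values fell inside the heterozygous range, and the log2 change of -0.03 ± 0.15 had an interval from -0.36 to 0.31 and was the same without extract 1, at -0.03 ± 0.15.

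Of the genes that act on the cut ends, *Dmc1* RNA was at 115, 87.3 and 67.8 CPM in the heterozygotes and at 71.8, 81.0 and 69.2 CPM in *Mael*-/- testes. The change was -0.28 ± 0.17 (SE, 95% interval -0.65 to 0.10, adjusted p = 0.982, edgeR), and -0.06 ± 0.12 without heterozygous extract 1. *Meiob*, whose product binds single-stranded DNA, varied most. It was at 62.0, 20.2 and 25.0 CPM in the heterozygotes and at 38.8, 42.2 and 29.8 CPM in *Mael*-/- testes, so that every *Mael*-/- value lay above heterozygous extracts 2 and 3 and below extract 1. Its log2 change was 0.05 ± 0.35 (SE, 95% interval -0.73 to 0.84, adjusted p = 0.995, edgeR). Without heterozygous extract 1, which leaves 2 heterozygous libraries, it was 0.71 ± 0.15 with an adjusted p of 0.0492. *Meiob* was then the 1 gene of the 9 that passed the threshold, in a comparison that called 0.430% of 14876 genes. Extract 1 was singled out from these data and held the highest *Meiob* value, so leaving it out raises the change. Without heterozygous extract 2 or 3 instead, the change was -0.23 ± 0.31 or -0.15 ± 0.38.

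For the 4 crossover genes the intervals over all libraries covered 0. *Msh4* had the pattern of *Meiob*, at 34.3, 12.5 and 13.8 CPM in heterozygous RNA and 18.5, 18.6 and 15.0 CPM in *Mael*-/- RNA, with a log2 change of -0.21 ± 0.33 that became 0.40 ± 0.14 (adjusted p = 0.488, edgeR) without heterozygous extract 1. Its partner *Msh5* was at 45.5, 32.0 and 26.9 CPM in heterozygotes and at 28.7, 31.9 and 30.1 CPM in *Mael*-/- testes, a change of -0.20 ± 0.17. *Mlh3* was at 54.3, 37.2 and 37.4 CPM against 42.9, 37.3 and 35.9 CPM, a change of -0.14 ± 0.16. *Ccnb1ip1*, the least abundant by CPM, was at 15.9, 9.46 and 10.6 CPM against 10.8, 15.0 and 11.3 CPM, a change of 0.06 ± 0.21. In each of these 4 genes extract 1 was the highest heterozygous value. Without it the changes were 0.04 ± 0.11 for *Msh5*, 0.06 ± 0.11 for *Mlh3* and 0.31 ± 0.16 for *Ccnb1ip1*, and 6 of the 9 genes were higher and 3 lower in *Mael*-/- RNA, with a median of 0.06.

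Footprints set the same extract apart. None of the 9 genes was called by edgeR, where 0.0593% of 13500 genes were, and 585 genes had an unadjusted p under 0.05, of which 1 was of the 9, *Spo11*. DESeq2 and limma voom called 0 of the 9 as well. In footprints 1 gene was higher and 8 lower in *Mael*-/- testes, with a median log2 change of -0.25 against -0.01 over all genes. Without heterozygous extract 1 the median was 0.09, and with limma voom over all libraries it was -0.04, with 3 higher and 6 lower. The genotypes overlapped in 9 of 9 genes, where 9.06% of all genes did not overlap. Heterozygous extract 1 was the highest of the 6 footprint libraries in 8 of the 9, the exception being *Prdm9*, and in 27.8% of the genes that averaged 50 counts or more.

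*Spo11* footprints were at 31.9, 16.8 and 13.9 CPM in the heterozygotes and at 11.1, 16.8 and 12.1 CPM in *Mael*-/- testes, a log2 change of -0.65 ± 0.29 (SE, 95% interval -1.28 to -0.02, adjusted p = 0.998, edgeR). Without extract 1 it was -0.20 ± 0.19. *Dmc1* footprints were at 163, 95.4 and 84.3 CPM against 87.5, 93.0 and 88.4 CPM. Heterozygous extract 1 was 1.81 times the mean of the other heterozygous extracts, and the *Mael*-/- values lay between those of extracts 2 and 3. The change of *Dmc1* was -0.35 ± 0.20, and -0.01 ± 0.10 without extract 1.

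*Meiob* footprints were at 119, 36.8 and 41.5 CPM in the heterozygotes and at 51.5, 62.7 and 52.2 CPM in *Mael*-/- testes. Extract 1 was 3.03 times the mean of the other heterozygous extracts, the largest ratio among the 9 genes in either assay, and again every *Mael*-/- value lay between. The change was -0.25 ± 0.35 over all libraries and 0.50 ± 0.12 (adjusted p = 0.271, edgeR) without extract 1. *Msh4* footprints were at 47.3, 15.5 and 19.7 CPM against 18.0, 25.4 and 20.4 CPM, a change of -0.38 ± 0.34 that became 0.25 ± 0.17 without extract 1. None of the 9 was called without this library, where 0.125% of 13654 genes were called, and 6 of the 9 were higher and 3 lower.

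The remaining footprint changes were 0.22 ± 0.19 for *Prdm9*, -0.10 ± 0.12 for *Mei1*, -0.06 ± 0.22 for *Msh5*, -0.11 ± 0.15 for *Mlh3* and -0.34 ± 0.26 for *Ccnb1ip1*. Without heterozygous extract 1 they were 0.41 ± 0.17 for *Prdm9*, -0.02 ± 0.12 for *Mei1*, 0.26 ± 0.16 for *Msh5*, 0.09 ± 0.11 for *Mlh3* and 0.01 ± 0.19 for *Ccnb1ip1*, so that the last 3 of these changed sign. The footprint values of these 5 genes ran from 9.81 CPM, for *Ccnb1ip1* in heterozygous extract 2, to 72.8 CPM, for *Mei1* in heterozygous extract 1. The lowest number of reads behind any value was 76, for *Ccnb1ip1* footprints in heterozygous extract 2.

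**Figure D2:**
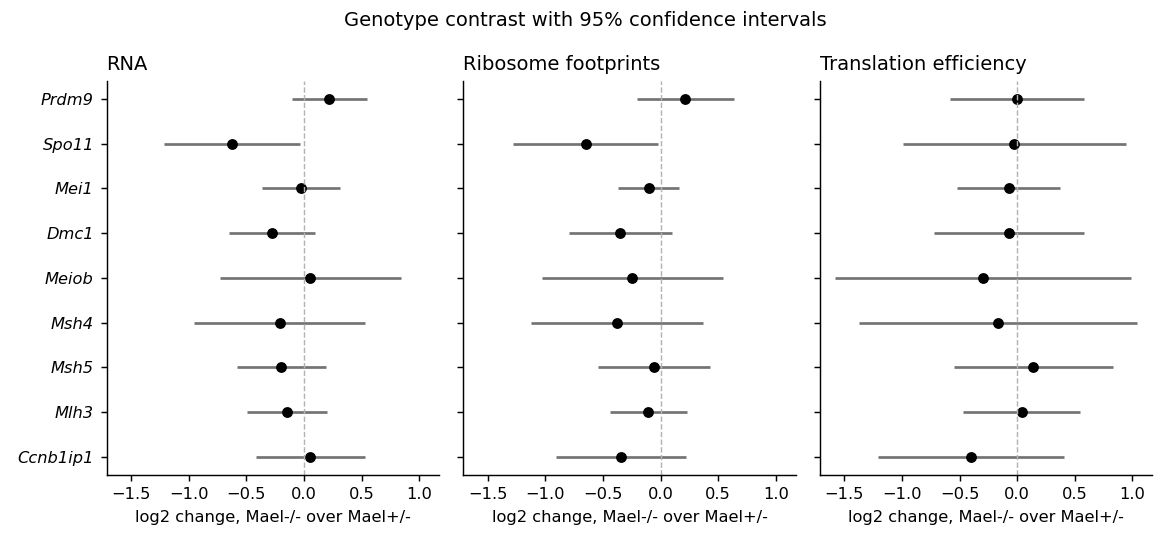
Log2 change of each gene, *Mael*-/- over *Mael*+/-, with its 95% confidence interval from edgeR, for RNA, footprints and translation efficiency. The intervals of all 9 genes cover 0 except those of *Spo11* in RNA and in footprints, and no gene passed an adjusted p of 0.05.

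The spread between the heterozygous extracts was larger than that between the *Mael*-/- extracts. The coefficient of variation over 3 libraries was larger in the heterozygotes for 9 of 9 genes in RNA, and for 68.5% of the 12181 genes that averaged 50 counts or more. In footprints it was larger in the heterozygotes for 9 of 9, and for 76.2% of all such genes. In RNA it was 64.0% for *Meiob* and 60.4% for *Msh4* in the heterozygotes, against 17.3% and 11.99% in *Mael*-/- testes. For *Spo11* it was 46.4% against 3.15%, and for *Mei1* 22.9% against 3.72%. Within genotypes, the SD of log2 RNA was 0.28 in the median gene of the 9 and 0.14 in the median of the genes that averaged 50 counts or more.

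**Figure D3:**
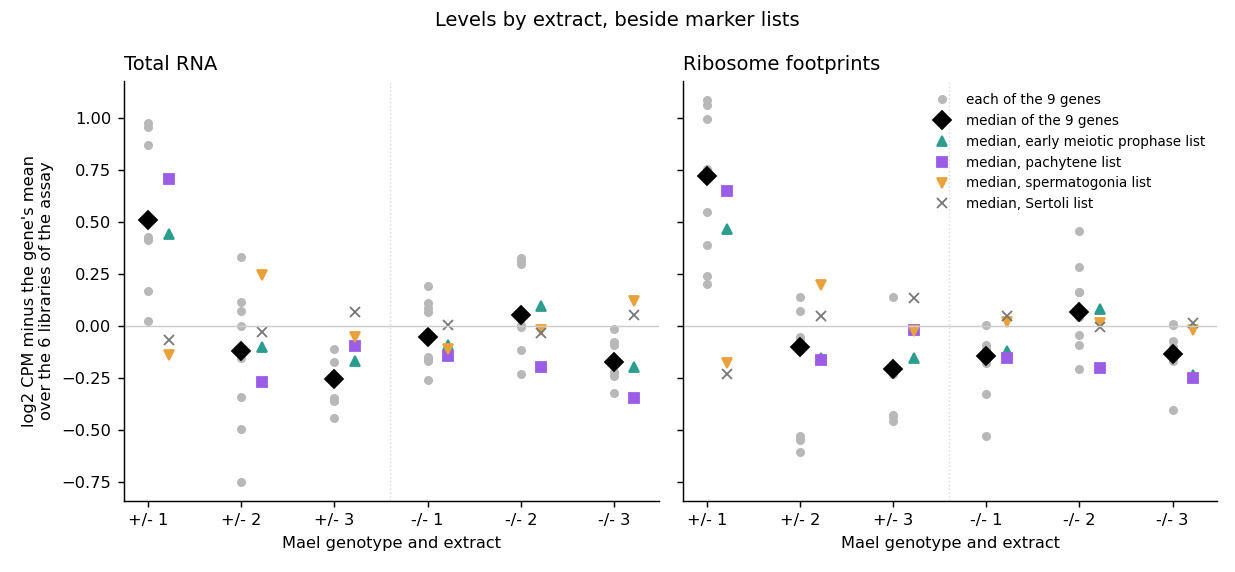
Level of the 9 genes in each extract, as log2 CPM minus the gene's mean over the 6 libraries of the assay, with the median of the 9 and the medians of 4 marker lists. In heterozygous extract 1 the median of the 9 was 0.51 in RNA and 0.72 in footprints, above the other 5 extracts in both assays, and the pachytene and early prophase lists were high in it as well, while the spermatogonial and Sertoli lists were not.

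The change of footprints beyond that of RNA, here called translation efficiency, asked whether ribosomes engage these mRNAs differently without *Mael*. None of the 9 genes was called, and 0% of the 13448 genes tested were called (edgeR, 53 genes with an unadjusted p under 0.05, and 0 genes called by DESeq2 or limma voom). The 9 changes ran from -0.40 ± 0.38 for *Ccnb1ip1* (SE, 95% interval -1.20 to 0.41) to 0.14 ± 0.32 for *Msh5*, with a median of -0.07 against -0.0023 over all genes. The RNA and footprint libraries of an extract are parts of the same lysate and deviated together from their group, so the extract can be kept as a block, which narrows the intervals. With the block the change was -0.26 ± 0.12 for *Meiob* (SE, 95% interval -0.50 to -0.02, adjusted p = 0.9999, edgeR), -0.36 ± 0.18 for *Ccnb1ip1* and -0.15 ± 0.15 for *Msh4*. For *Prdm9*, *Spo11*, *Mei1* and *Dmc1* it then lay between -0.09 and -0.01, with intervals that reached from -0.34 to 0.28 over these 4 genes.

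The ratio of footprints to RNA varied less than RNA between the heterozygous extracts, and not always between the *Mael*-/- extracts. The log2 ratio of *Spo11* was -0.34, -0.36 and -0.32 in heterozygous extracts 1 to 3 and -0.63, -0.06 and -0.44 in the *Mael*-/- extracts. Its heterozygous range was thus 0.04, where its RNA alone ranged over 1.22 on the log2 scale, while in *Mael*-/- testes the ratio ranged over 0.57 and the RNA over 0.09. The log2 ratio of *Meiob* was 0.93, 0.86 and 0.73 in the heterozygotes and 0.41, 0.57 and 0.81 in *Mael*-/- testes. The ranges of this gene overlapped by 1 library, since *Mael*-/- extract 3 was above heterozygous extract 3. Across the 9 genes the heterozygous range was 0.04 to 0.53 in the ratio against 0.52 to 1.61 in RNA, and narrower in the ratio for 9 of 9. The *Mael*-/- range was 0.05 to 0.62 in the ratio against 0.09 to 0.50 in RNA, and wider in the ratio for 5 of the 9, *Spo11*, *Msh4*, *Msh5*, *Mlh3* and *Ccnb1ip1*. The share of all genes with such ranges was not computed. Within genotypes the SD of the log2 ratio was 0.154 in the median gene of the 9. It was 0.146 in the median of the genes that averaged 50 counts or more, so the ratio of the 9 was not unusually steady. The genotypes overlapped in 9 of 9, where 6.19% of genes did not overlap.

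Within the extracts, footprints differed from RNA in 9 of 9 genes when both were expressed in CPM, with footprints higher for 6 and lower for 3. The largest difference was that of *Meiob*, at 0.79 ± 0.06 on the log2 scale (SE, adjusted p = 7.6e-11, edgeR with extract block), followed by *Msh4* at 0.44 ± 0.07, *Msh5* at 0.40 ± 0.06, *Dmc1* at 0.37 ± 0.05, *Mei1* at 0.34 ± 0.05 and *Ccnb1ip1* at 0.34 ± 0.10. Footprints were lower for *Spo11*, at -0.28 ± 0.07, *Prdm9*, at -0.27 ± 0.05, and *Mlh3*, at -0.19 ± 0.06. This is a common outcome, since 79.9% of 13448 genes were called, and those with footprints higher made up 39.4% of the genes tested and those with footprints lower 40.5%. Without the extract as a block 4 of the 9 were called, *Mei1*, *Dmc1*, *Meiob* and *Msh5*, where 70.9% of genes were. Footprints were counted over coding sequence alone, so the share of the mRNA that codes enters this ratio, and that share was 93.4% of the exon length in *Mei1*, 85.3% in *Msh5*, 83.0% in *Meiob*, 77.6% in *Msh4*, 76.8% in *Mlh3*, 70.1% in *Spo11*, 69.6% in *Prdm9*, 55.1% in *Ccnb1ip1* and 46.1% in *Dmc1*.

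Scaled by length and set relative to the median gene, in which footprints per kb exceeded RNA per kb by 0.94 on the log2 scale, the order of the genes was different. 7 of the 9 genes were called, where 80.4% of 13395 genes were, which divides into 40.5% of the genes tested with footprints higher and 39.9% lower. *Dmc1* had 1.45 times the footprint density per RNA of the median gene, at a log2 difference of 0.55 ± 0.05 (SE, adjusted p = 7.8e-10, edgeR with extract block), which put its mean ratio at percentile 76.1. *Ccnb1ip1* was also above the median gene, at 0.26 ± 0.10 (adjusted p = 0.0174). *Meiob*, at 0.12 ± 0.06, and *Msh4*, at -0.14 ± 0.07, did not pass the threshold.

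The other 5 genes had fewer footprints per RNA than the median gene. *Mlh3* was lowest, at -0.75 ± 0.06 and percentile 11.9, followed by *Spo11* at -0.71 ± 0.07 and percentile 12.7 and *Prdm9* at -0.69 ± 0.05 and percentile 13.3. *Mei1* was at -0.50 ± 0.05 and *Msh5* at -0.31 ± 0.06. For *Mei1*, *Msh4* and *Msh5* the sign depended on the scaling, as footprints were higher than RNA in CPM and lower per length, and for *Prdm9*, *Spo11* and *Mlh3* they were lower on both scales. Within the MSH4 and MSH5 pair, the log2 ratio per length was -0.05, -0.20 and 0.02 for *Msh4* and -0.29, -0.41 and -0.48 for *Msh5* in the heterozygous extracts, so *Msh4* was higher in 3 of 3. In *Mael*-/- extracts 1 to 3 the ratios were -0.56, -0.06 and -0.05 for *Msh4* and -0.31, -0.03 and -0.38 for *Msh5*, and *Msh4* was higher in 1 of 3.

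**Figure D4:**
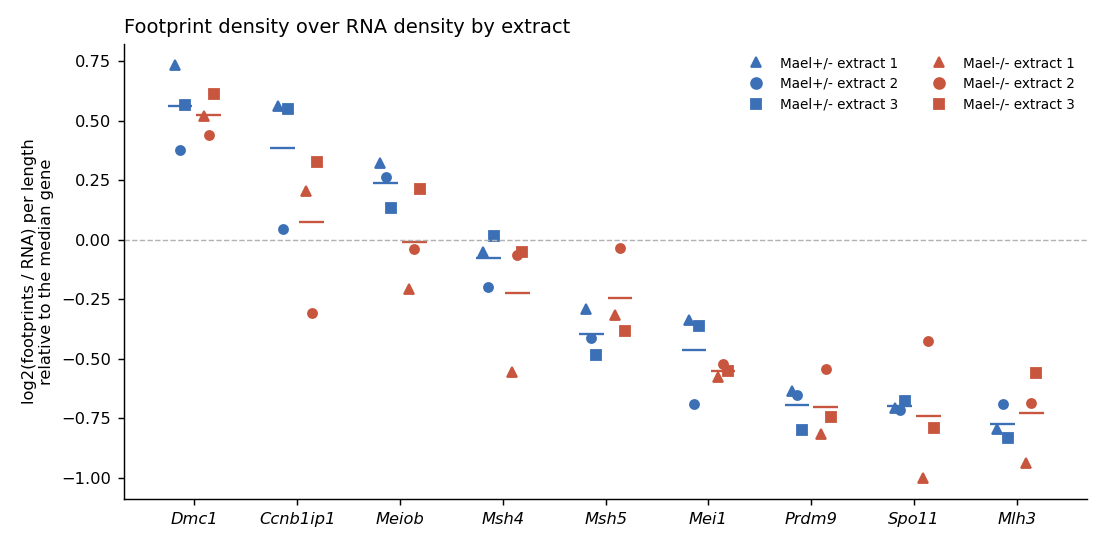
Log2 ratio of footprints per kb of coding sequence to RNA per kb of exon in each extract, relative to the median of 13395 genes; blue is *Mael*+/-, red is *Mael*-/-, and bars are means of 3. *Dmc1* lay above the median gene in 6 of 6 extracts, and *Prdm9*, *Spo11*, *Mei1*, *Msh5* and *Mlh3* lay below it in 6 of 6.

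Genes of the same steps were read beside these 9, from a list of 61 others of which 56 had a row and were tested. In RNA 18 of the 56 were higher and 38 lower in *Mael*-/- testes, with a median log2 change of -0.05. By edgeR 0 were called and 6 had an unadjusted p under 0.05, as did 5.40% of all genes. DESeq2 and limma voom called 0 in RNA. With limma voom 28 were higher and 28 lower in RNA. In footprints 19 were higher and 37 lower, with a median of -0.06. There 0 were called and 6 had an unadjusted p under 0.05 (edgeR), as did 4.33% of all genes. The footprint counts with limma voom were 27 higher and 29 lower. Without heterozygous extract 1 the lean reversed. There 30 were higher and 26 lower in RNA, with a median of 0.02, and 36 higher and 20 lower in footprints, with a median of 0.06. For translation efficiency 26 were higher, 30 lower and 0 called, with 1 at an unadjusted p under 0.05, as were 0.394% of all genes. DESeq2 and limma voom also called 0 in footprints and in translation efficiency. By role, and with extract 1 included, the median RNA change was -0.11 over 7 genes of break formation and 0.07 over 7 genes of end processing and checkpoint kinases. Over 8 genes of single strand binding and BRCA2 partners it was -0.09. It was -0.09 over 17 strand exchange genes, -0.04 over 7 crossover genes and -0.08 over 10 genes of other joint molecule resolution.

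The genotypes did not overlap in 8 of the 56 genes in RNA and in 10 in footprints, where 10.2% and 9.06% of all genes did not overlap. The genes named next had the smallest RNA p of their role, a choice that favours groups that do not overlap. Among the crossover genes *Cntd1*, a cyclin-like factor that promotes crossover maturation, differed most. Its RNA was at 97.5, 24.5 and 26.5 CPM in heterozygotes and at 16.9, 17.1 and 12.1 CPM in *Mael*-/- testes, a change of -1.69 ± 0.47 (SE, adjusted p = 0.686, edgeR). Its footprints were at 53.5, 13.8 and 16.2 CPM against 8.87, 9.09 and 8.17 CPM. The genotypes did not overlap in either assay, heterozygous extract 1 was far above the others, and without it the RNA change was -0.74 ± 0.14 with an adjusted p of 0.0367, and the footprint change -0.79 ± 0.16 with an adjusted p of 0.125. *Hfm1*, a helicase of the same step, was at 161, 63.4 and 70.4 CPM against 59.3, 64.7 and 46.9 CPM, a change of -0.78 ± 0.31 that became -0.23 ± 0.12 without extract 1.

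*Top6bl*, listed under its older symbol *Gm960*, which encodes the partner of SPO11 in the cutting complex, was lower in RNA in all 3 *Mael*-/- libraries than in any heterozygous library. It was at 29.3, 22.3 and 19.1 CPM in the heterozygotes and at 14.3, 18.2 and 13.3 CPM in *Mael*-/- testes, a change of -0.62 ± 0.18 (SE, adjusted p = 0.688, edgeR) that was -0.43 ± 0.14 without extract 1. Its footprint change was -0.83 ± 0.21 with an adjusted p of 0.694, again without overlap, and -0.61 ± 0.18 without extract 1. *Cxxc1*, whose product binds PRDM9, had a change of -0.11 ± 0.10 in RNA, and -0.04 ± 0.10 without extract 1.

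*Mnd1* and *Psmc3ip* encode the pair of proteins that helps DMC1 invade the homolog. *Mnd1* RNA was at 12.4, 7.84 and 7.05 CPM against 5.65, 6.94 and 5.93 CPM, a change of -0.55 ± 0.22, and its footprint change was -0.97 ± 0.28 (adjusted p = 0.807, edgeR). *Psmc3ip* RNA was at 54.1, 31.4 and 30.3 CPM against 26.9, 28.6 and 27.2 CPM, a change of -0.48 ± 0.20, and its footprint change was -0.64 ± 0.26. Neither gene overlapped between genotypes in either assay, and without heterozygous extract 1 the RNA changes were -0.26 ± 0.17 for *Mnd1* and -0.15 ± 0.11 for *Psmc3ip*, and the footprint changes -0.64 ± 0.25 and -0.19 ± 0.14. *Rad51ap2*, named because it was called without extract 1, was at 57.3, 18.0 and 20.5 CPM in heterozygous RNA and at 42.3, 53.1 and 30.3 CPM in *Mael*-/- RNA. Its change was 0.40 ± 0.39 over all libraries and 1.12 ± 0.18 (adjusted p = 0.00584, edgeR) without extract 1. Like *Meiob*, it had all 3 *Mael*-/- values between heterozygous extract 1 and the other heterozygous extracts. Leaving out its highest library, which was singled out from these data, raises the change.

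The RNA changes of the other genes with the smallest RNA p of their role were -0.46 ± 0.20 for *Atr*, the checkpoint kinase, 0.13 ± 0.09 for *Nbn*, of the complex that trims the cut ends, and -0.19 ± 0.10 and -0.17 ± 0.17 for *Palb2* and *Brme1*, which encode partners of BRCA2 and of its meiotic complex. They were -0.16 ± 0.09 for *Rtel1*, a helicase that takes joints apart, and 0.11 ± 0.08 for *Top3a*, a topoisomerase that does so. None had an adjusted p under 0.9 in RNA. Without extract 1 they were -0.14 ± 0.10 for *Atr*, 0.08 ± 0.10 for *Nbn*, -0.14 ± 0.10 for *Palb2*, 0.03 ± 0.13 for *Brme1*, -0.18 ± 0.10 for *Rtel1* and 0.10 ± 0.09 for *Top3a*. Of the 56 genes 2 were called in RNA without heterozygous extract 1, *Cntd1* and *Rad51ap2*, in opposite directions, where 0.430% of 14876 genes were. In footprints 0 of the 56 were called, where 0.125% of 13654 genes were. The 2 RNA calls rest on leaving out a library that was singled out from these data.

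**Figure D5:**
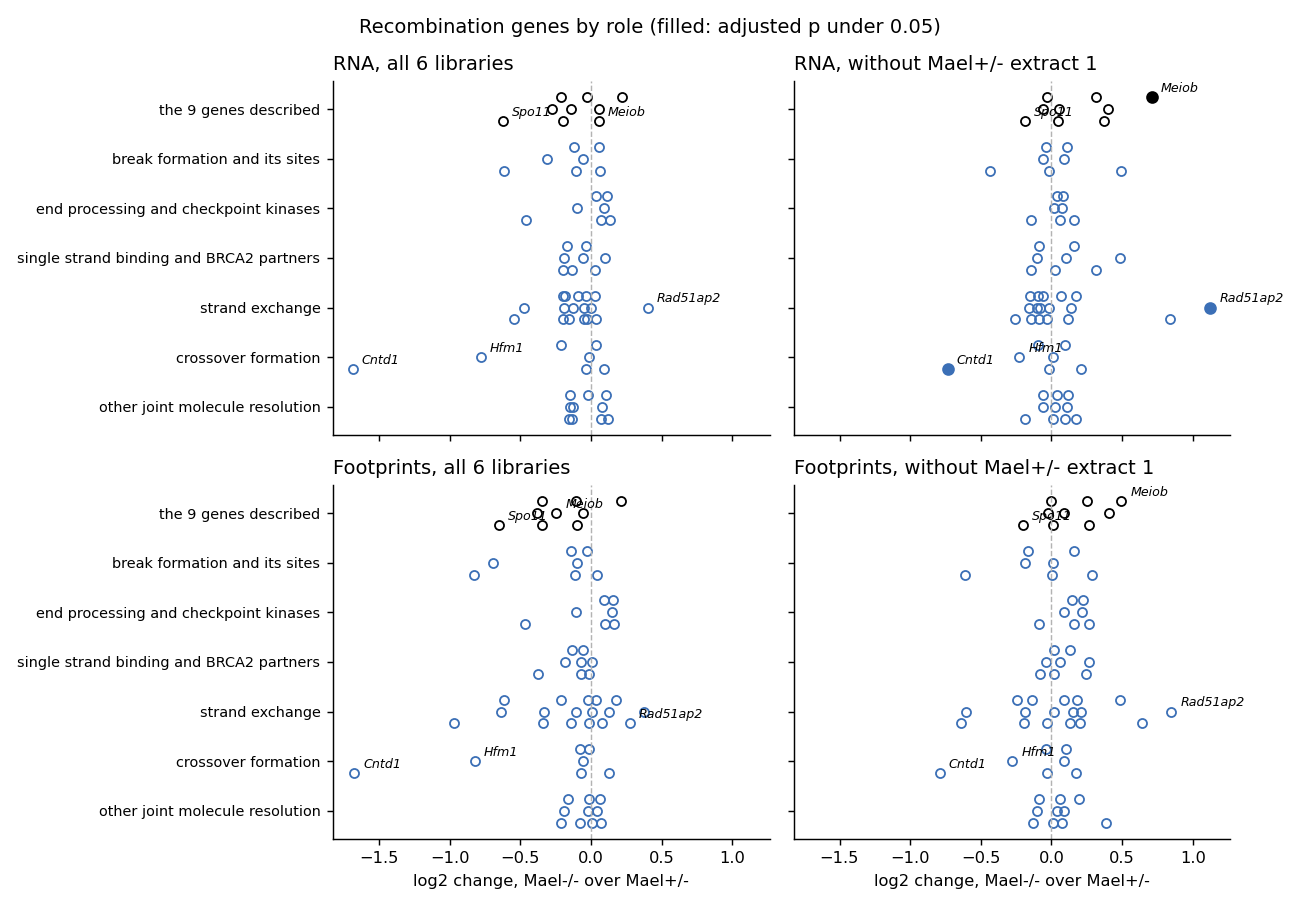
Log2 change, *Mael*-/- over *Mael*+/-, of the 9 genes (top row of each panel) and of 56 other recombination genes by role, in RNA (top) and footprints (bottom), over all 6 libraries (left) and without heterozygous extract 1 (right); filled points had an adjusted p under 0.05. No point is filled over all libraries, and without extract 1 *Meiob* and *Rad51ap2* are filled on the right of 0 and *Cntd1* on the left, in RNA alone.

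Genes outside the pathway were compared by profile. Those whose levels ran most like the mean of the 9 across the 12 libraries were *Zufsp*, *Ift122*, *Urb2*, *Dtl* and *Fra10ac1*. Their root mean square difference from that mean, on the log2 scale and after centring each gene on the mean of its assay, was 0.07 for *Zufsp*, 0.07 for *Ift122*, 0.08 for *Urb2*, 0.08 for *Dtl* and 0.09 for *Fra10ac1*, against a median of 0.32 over 12181 genes. Of the 9 genes themselves, which enter that mean, *Msh5* at 0.11 and *Dmc1* at 0.11 came nearest and *Meiob* at 0.29 was farthest, at rank 4011.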

How the data were processed

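RNA and footprint libraries of 3 *Mael*+/- and 3 *Mael*-/- extracts were used. The authors clipped footprint reads, removed those of ribosomal DNA with Bowtie 1.2.2, aligned both kinds of read to mm10 with STAR 2.6.0c, and counted them with featureCounts (Subread 1.6.4), RNA over exons and footprints over coding sequence. The deposited values are raw counts in whole numbers. The strand setting of the counting and any removal of duplicate reads are not given in the sources used here. Deposited tables of the authors' DESeq2 fold changes and p-values were not used. The per-sample columns not mapped were 0.

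In R 4.3.3, edgeR 4.0.16 tested each gene by quasi-likelihood, with TMM factors, its default filter and Benjamini-Hochberg adjustment over all genes, at 0.05. For translation efficiency the model over 12 libraries had a term for genotype by assay. Standard errors were taken as the log2 change over the root of F. CPM are counts scaled by gene total and TMM factor, and ratios had 0.05 CPM added. Depth limits each value through its counts, and the errors given describe spread between libraries. RefSeq exon and coding lengths (curated mRNAs, GRCm38.p6) were found for 99.0% of rows.

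RNA and footprint libraries of one extract deviated together from their groups, with correlations across 13448 genes of 0.731, 0.581 and 0.627 in the heterozygotes and 0.233, 0.218 and 0.214 in *Mael*-/-, above the limit of 0.1, so extracts can serve as blocks. Fits were tested on simulated data. No simulated extract stood apart as heterozygous extract 1 does, so the simulation does not speak to its effect on the fits.

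The 10 genes, the lists and the motifs were chosen with earlier results of these data known. Named were the 10 genes, *Mael*, called genes of the wider list or else the 2 per role with the smallest RNA p, and the 5 genes of most like profile. Alternatives were DESeq2 1.42.0, limma 3.58.1 voom with quality weights, median-of-ratios factors, other filters, the block, length scaling and leaving out libraries. Proteins were not used here.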

Additional observations from a re-analysis of the deposited data

How the results depend on the processing

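Of the 9 genes, 0 were called between genotypes in footprints and in translation efficiency under every alternative run, and in RNA 0 were called except without heterozygous RNA replicate 1, so the counts from leaving out a replicate in RNA ran from 0 to 1. Over the 56 other recombination genes they ran from 0 to 2 in RNA. The 2 were called without heterozygous RNA replicate 1, as were 64 of all 14876 genes tested. The signs of the uncalled changes of the 9 genes depended on which library was left out, and the cause was not tested. From leaving out 1 library at a time, the RNA log2 change ran from -0.18 to 0.15 for *Mei1*, -0.46 to 0.40 for *Msh4*, -0.35 to 0.045 for *Msh5*, -0.23 to 0.71 for *Meiob*, -0.24 to 0.056 for *Mlh3* and -0.11 to 0.31 for *Ccnb1ip1*. In footprints it ran from -0.52 to 0.50 for *Meiob*, -0.26 to 0.26 for *Msh5*, -0.65 to 0.25 for *Msh4*, -0.23 to 0.089 for *Mlh3* and -0.60 to 0.010 for *Ccnb1ip1*. For translation efficiency it ran from -0.19 to 0.19 for *Prdm9*, -0.25 to 0.086 for *Mei1*, -0.29 to 0.27 for *Dmc1*, -0.47 to 0.42 for *Spo11*, -0.96 to 0.44 for *Meiob*, -0.78 to 0.47 for *Msh4*, -0.10 to 0.46 for *Msh5* and -0.17 to 0.24 for *Mlh3*, and from -0.29 to 0.27 for the median of the 9. Both libraries of heterozygous extract 1 were also left out, a choice made after seeing the data. The translation efficiency change was then 0.038 for *Prdm9*, 0.0056 for *Mei1* and 0.055 for *Dmc1*. With the extract block as well it was 0.024 for *Prdm9* and 0.046 for *Dmc1*. With limma voom and quality weights the RNA change was 0.062 for *Mei1*, 0.20 for *Msh4* and 0.0021 for *Msh5*, and the footprint change 0.14 for *Meiob* and 0.10 for *Msh5*. The directions of *Prdm9*, *Spo11* and *Dmc1* held under 12 of 12 alternatives in RNA and in footprints. Without a filter the translation efficiency change of *Prdm9* was 0.0013.

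Genes called in RNA, 17 as reported, numbered 58 with DESeq2, 36 with voom, 4 where only genes that averaged 50 counts or more were tested, 50 with the replicate number as a block, and 2 to 64 when 1 library was left out. In footprints, 8 became 21 with DESeq2, 1 with the stricter filter, 23 with the block and 2 to 17 without 1 library. The labels do not say whether equal replicate numbers of the genotypes share more than the number. Their deviations correlated at 0.206, 0.00232 and 0.116 in RNA and 0.0731, 0.171 and 0.0254 in footprints, some above the limit of 0.1. In RNA 2 of 3 heterozygous and 1 of 3 *Mael*-/- libraries correlated best with their own number, and in footprints 2 of 3 of each. A batch shared by equal numbers was not tested. With that replicate block the median change of the 9 genes was -0.06 in RNA and -0.10 in footprints, and with the extract block it was -0.045 in translation efficiency, with 0 of the 9 called in each. For footprints against RNA, 4 of the 9 were called with no extract block, where 70.9% of genes were. Per length the median of the 9 was -0.31, and *Mei1* turned to -0.50, *Msh4* to -0.14 and *Msh5* to -0.31. From *Mael*-/- libraries alone 7 of the 9 were called, not *Mlh3* and *Ccnb1ip1*, where 9467 of all 13007 genes tested were. With 3 extracts a genotype and 1 that stands apart, the widest interval of an RNA change among the 9, that of *Meiob*, reached from -0.73 to 0.84.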
